A study of Mus musculus with 12 samples.

Results

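The mouse T cell receptor (TCR) gamma locus was examined by DNase-seq, which sequences the short fragments that DNase I cuts from accessible chromatin and calls places with many cuts as DNase I hypersensitive sites (DHSs). Its members were all DHSs with their midpoint in a 250-kb stretch of mouse chromosome 13 (mm10), the first starting at 19152237 and the last ending at 19395966, that holds Tcrg-C1, Tcrg-C2, Tcrg-C3 and Tcrg-C4 with their V and J segments. When the peaks of 12 libraries were merged, 60 of 170207 DHSs on autosomes and the X chromosome lay there. The libraries came from 3 freshly sorted LSK samples (marrow progenitors negative for lineage markers and positive for SCA1 and KIT), from LSK-derived DN1 (2), DN2a (2) and DN2b (2) cells grown on immobilised Delta1, a Notch ligand, and from 3 LSK cultures on IgG without the ligand. Per the methods the mice were C57BL/6J, their age is not given in the sources used here, and all cultures shared the cytokines SCF, FLT-3 ligand, IL-6 and IL-11. DN1 cells came from Delta1 cultures without IL-7 and the DN2a and DN2b cells from Delta1 cultures with IL-7. Stage and IL-7 can thus not be told apart between DN1 and DN2. The methods name IL-7 for Delta1 cultures only, so ligand and IL-7 cannot be told apart between DN2b and IgG. LSK cells were not cultured, so stage, Delta1 and culture cannot be told apart between LSK and DN1. The DN populations were sorted on KIT, CD44 and CD25, and since they were taken from each LSK replicate, libraries of different groups may share an isolate. The labels do not pair them, and each p-value below treats libraries as independent.

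Gamma delta T cells carry a receptor whose gamma chain is assembled by V(D)J recombination, in which the RAG1 and RAG2 proteins join a V segment to a J segment next to a constant (C) gene. RAG proteins bind recombination signal sequences, a heptamer and a nonamer held apart by a spacer, that flank every V and J segment, and they need those signals to be accessible. The gamma locus is known for its dependence on IL-7 receptor signalling through STAT5, and an enhancer 3′ of Tcrg-C1, with related copies by other C genes, is known to bind RUNX and MYB proteins. The mouse locus is built of repeated V-J-C clusters. Tcrg-V7, Tcrg-V4, Tcrg-V6, Tcrg-V5, Trgj1 and Tcrg-C1 form the first, Tcrg-V3, Trgj3 and Tcrg-C3 the next, Tcrg-C2, Trgj2 and Trgv2 lie on the opposite strand, and Tcrg-V1, Trgj4 and Tcrg-C4 close the locus before Stard3nl, a gene of another family.

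The J signals are shown first because they are what RAG binds and because they show how alike the clusters are. Each run below is the 28 bases of GRCm38, the assembly behind mm10, just 5′ of a J segment and read in the segment's direction. Capitals mark the nonamer and the heptamer, with a spacer of 12 bases in lower case. They lie at chr13:19210315-19210342 for Trgj1, chr13:19257089-19257116 for Trgj3, chr13:19311305-19311332 (minus strand) for Trgj2 and chr13:19342124-19342151 for Trgj4.
Trgj1: GATTTTTGTagaagctgtgagCACTGTG
Trgj3: GATTTTTGTagaagctgtgagCACTGTG
Trgj2: GATTTTTGTagaagctgtgagCACTGTG
Trgj4: TGTTTTTGTagaagcgctgaaCAATGTG
The first 3 signals were identical to each other. Their heptamers matched the canonical CACTGTG at 7 of 7 bases, and the Trgj4 heptamer matched at 6 of 7. All 4 nonamers matched GGTTTTTGT at 8 of 9 bases.

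The next set holds the DHSs 3′ of the C genes that the stage comparison turns on. In these and the following runs capitals mark every match, on either strand, to 9 short words bound by families of transcription factors, with overlapping matches joined. The STAT word was TTCNNNGAA, where N is any base. RUNX proteins were given the word TGTGGT, ETS proteins the word AGGAAG and GATA proteins the word AGATAA. E proteins, which bind E boxes, were given the word CAGCTG and also the word CAGGTG. For TCF1 and LEF1 the word was CTTTGA, for MYB it was CAACNG, and for RBPJ, the partner of Notch, it was TGGGAA. The first 3 are copies of one element: the whole DHS 3′ of Tcrg-C3 (chr13:19272877-19273046) and the parts of the DHSs 3′ of Tcrg-C1 (chr13:19219757-19219887) and Tcrg-C2 (chr13:19300503-19300676, minus strand) that align with it. The others are whole DHSs, on the plus strand, at chr13:19300797-19300986, chr13:19356197-19356406 and chr13:19357397-19357586. All 6 lie between annotated genes.
Tcrg-C3 3′ copy: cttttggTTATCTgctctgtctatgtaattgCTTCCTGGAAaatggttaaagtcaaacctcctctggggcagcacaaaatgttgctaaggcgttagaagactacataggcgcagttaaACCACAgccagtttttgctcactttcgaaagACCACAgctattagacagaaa
Tcrg-C1 3′ copy: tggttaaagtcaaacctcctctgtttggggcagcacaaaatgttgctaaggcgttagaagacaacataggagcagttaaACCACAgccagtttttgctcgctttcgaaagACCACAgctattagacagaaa
Tcrg-C2 3′ copy: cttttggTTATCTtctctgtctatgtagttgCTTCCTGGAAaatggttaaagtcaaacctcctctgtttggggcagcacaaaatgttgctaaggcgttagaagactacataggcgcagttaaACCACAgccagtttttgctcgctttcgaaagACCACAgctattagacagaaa
Tcrg-C2 3′ site: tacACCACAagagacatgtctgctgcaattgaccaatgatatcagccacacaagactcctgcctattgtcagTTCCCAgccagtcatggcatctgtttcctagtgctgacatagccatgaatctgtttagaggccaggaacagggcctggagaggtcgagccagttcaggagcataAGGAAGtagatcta
Tcrg-C4 3′ site, near: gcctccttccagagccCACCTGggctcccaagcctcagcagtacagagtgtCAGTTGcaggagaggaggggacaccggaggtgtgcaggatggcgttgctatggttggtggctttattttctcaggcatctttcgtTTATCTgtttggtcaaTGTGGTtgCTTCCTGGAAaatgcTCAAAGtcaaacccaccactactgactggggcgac
Tcrg-C4 3′ site, far: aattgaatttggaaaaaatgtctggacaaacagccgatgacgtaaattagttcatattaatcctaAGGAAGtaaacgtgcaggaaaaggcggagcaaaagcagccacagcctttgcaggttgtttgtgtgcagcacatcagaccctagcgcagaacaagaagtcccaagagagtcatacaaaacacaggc
The Tcrg-C2 and Tcrg-C3 copies were identical at 167 of 174 aligned positions, and the Tcrg-C1 and Tcrg-C3 copies at 124 of 131. Between the whole DHSs by Tcrg-C1 and Tcrg-C2 the best alignment held 211 identical bases in 217 positions. All 3 copies carry 2 RUNX words, and the Tcrg-C2 and Tcrg-C3 copies carry a STAT word that overlaps an ETS word. The Tcrg-C1 run starts at the edge of its DHS, past the place of that STAT word. Bases outside the DHS were not searched, so the copies cannot be compared there. The near site by Tcrg-C4 carries the same STAT and ETS overlap together with RUNX and GATA words, and aligned with the DHS by Tcrg-C2 at 62 identical bases in 76 positions. The far site by Tcrg-C4 holds 1 ETS word and no other of these words.

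The last set gives DHSs of the V and J side, 182 bp before Tcrg-V7 (chr13:19177737-19177946), 2532 bp before Tcrg-V4 (chr13:19182357-19182526) and 352 bp before Trgj1 (chr13:19209897-19210086), all on the plus strand. The first pair lie in an intron of Gm31887, an antisense RNA gene that covers these V segments, and the Trgj1 site lies between genes.
Tcrg-V7 5′ site: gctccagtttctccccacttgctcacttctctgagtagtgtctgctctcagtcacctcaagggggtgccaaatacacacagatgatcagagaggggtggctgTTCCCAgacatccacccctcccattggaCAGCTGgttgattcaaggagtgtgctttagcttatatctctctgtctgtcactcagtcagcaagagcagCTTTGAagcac
Tcrg-V4 5′ site: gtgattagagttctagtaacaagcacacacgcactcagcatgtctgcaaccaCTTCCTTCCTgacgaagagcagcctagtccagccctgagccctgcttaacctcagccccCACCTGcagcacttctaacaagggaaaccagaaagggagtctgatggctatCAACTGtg
Trgj1 5′ site: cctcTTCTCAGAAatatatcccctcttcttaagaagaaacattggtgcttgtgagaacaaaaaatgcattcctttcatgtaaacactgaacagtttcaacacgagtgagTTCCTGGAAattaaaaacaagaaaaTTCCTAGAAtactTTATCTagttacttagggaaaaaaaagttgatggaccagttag
The Trgj1 site carries 3 STAT words and 1 GATA word in its 190 bases. The Tcrg-V7 site carries an E box, an RBPJ word and a TCF1/LEF1 word, and the Tcrg-V4 site 2 ETS words that overlap, an E box and a MYB word.

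Over all 60 DHSs the STAT word was the one whose share stood farthest from the rest of the genome. Within the central 150 bp, 10 of 60 (16.7%) carried it, against 4.79% of all DHSs. GATA was also above the genome's share, RUNX and the heptamer were level with it, and the others were below. The RUNX word was found in 23.3% of the locus DHSs and 23.1% of all DHSs, the ETS word in 25% against 33.5%, the GATA word in 11.7% against 8.25% and the MYB word in 20% against 22.0%. The E boxes CAGCTG and CAGGTG stood at 10% against 11.5% and at 5% against 12.8%. The RBPJ word was found in 10% against 12.8%, and the TCF1/LEF1 word in 8.33% against 11.2%. The RSS heptamer was found in 5% against 4.99%, and the nonamer in none against 0.300%. Several of the DHSs are copies of each other, so these counts are not independent, and a match describes letters in a window only.

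The lists carry no read totals, so depth is unknown, and their lengths ran from 32977 to 111657 peaks, shortest in IgG and longest in DN2b replicate 2. Each peak has a score of unstated meaning from 1 to 150. The value used here is the percentile of that score among the peaks of the same library, with 100 the highest and 0 for no peak. Promoters of 10 T lineage markers were open (a peak within 1 kb of the gene's start) in 1 to 2 of 10 cases in LSK, 3 in DN1, 6 in DN2a, 8 to 9 in DN2b and 0 in IgG. Ptcra was closed in every group, and Cd3e, Cd3g and Il2ra were closed in LSK, DN1 and IgG. LSK markers were open in 5 to 6 of 8 cases in LSK, 4 to 5 in the DN groups and 2 to 4 in IgG, with Ly6a and Mecom closed throughout. T lineage promoters opened with stage, while the IgG cultures stood apart by their myeloid promoters. Of 9 myeloid markers, 6 to 7 were open in IgG, 2 to 3 in DN2b, 2 in DN1 and DN2a and 1 to 2 in LSK. Of 6 NK and innate lymphoid markers 0 were open in IgG, 1 to 3 in LSK, 4 in DN1, 2 to 3 in DN2a and 3 to 4 in DN2b, with Ncr1 closed throughout. B lineage markers were open in 1 to 2 of 6 cases (Cd79a, Cd79b and Pax5 closed throughout), mast cell markers in 0 to 2 of 4 and erythroid markers in 0 to 3 of 4.

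The number of open DHSs in the locus was lowest in the IgG libraries. LSK libraries had a peak in 9, 9 and 11 of the 60 DHSs, DN1 libraries in 24 and 15, DN2a in 22 and 14, DN2b in 21 and 52, and IgG in 3, 2 and 4. DN1, DN2a and DN2b overlapped, and DN2b replicate 2, the longest list, stood far above its partner. With every list cut to its top 32952 peaks by score, the numbers were 4, 5 and 4 in LSK, 8 and 10 in DN1, 17 and 13 in DN2a, 21 and 31 in DN2b and 3, 2 and 2 in IgG. At equal list lengths the DN groups no longer overlapped and rose in stage order, with 2 libraries a group.

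**Figure D1:**
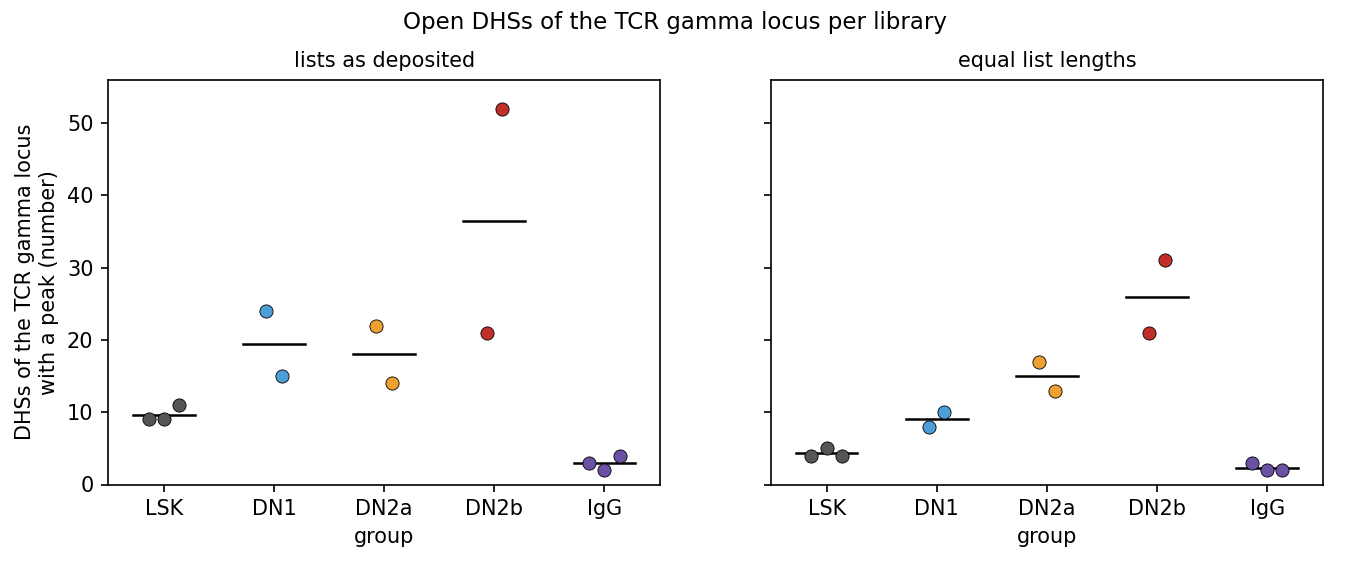
Number of TCR gamma DHSs (y axis) with a peak in each library (points) of each group (x axis), with the group mean as a line, for the lists as deposited and for lists cut to their top 32952 peaks by score. DN2b replicate 2 stands at 52 of 60 DHSs as deposited and at 31 at equal lengths, and the IgG libraries stay at 2 to 4 and 2 to 3.

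When a DHS was called present in a group with peaks in at least 2 of its replicates, LSK had 11, DN1 15, DN2a 13, DN2b 21 and IgG 2. By the first stage at which this held, 11 DHSs were already present in LSK, 6 appeared in DN1, 3 in DN2a and 8 in DN2b. One DHS was present in IgG alone, and 31 never reached 2 replicates of a group. Of the 60, 28 had a peak in 1 library only. DN2b replicate 2 alone accounted for 22 of them (36.7% of the locus DHSs, against 13% of all DHSs), DN1 replicate 1 for 5 and DN2a replicate 1 for 1. Those 22 had percentiles from 35.3 to 83.8 with a median of 68.9. Of them 15 lay within 2 kb of a J or C segment, and 9 were still in the list at equal lengths. Whether the length of that list has a part in them was not tested.

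**Figure D2:**
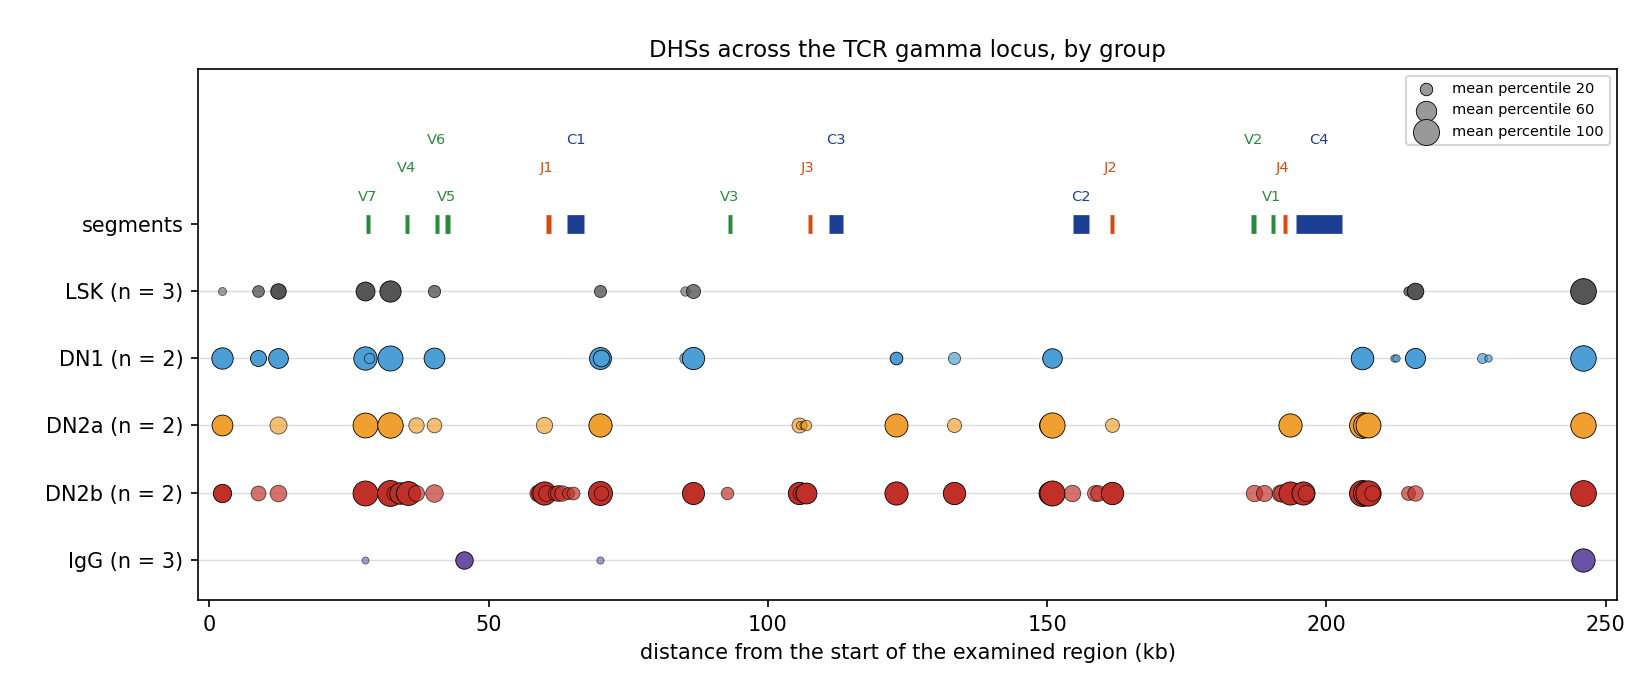
Map of the locus with each DHS placed by its distance (x axis, kb) from the start of the examined region, with 1 row per group (y axis). Circle area grows with the group's mean score percentile, fainter circles had a peak in only some libraries of the group, and V, J and C segments are drawn on top to scale (short ones widened to stay visible). The gap between V3 and V2 holds no circle in LSK and IgG and fills from DN1 to DN2b, the DHSs 182 bp before V7 and 2532 bp before V4 are present from LSK on, and IgG has 2 DHSs with peaks in at least 2 libraries.

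In the DN2 comparison, the mean of DN2a and DN2b was set against the mean of LSK, DN1 and IgG. Here 19 of 60 DHSs (31.7%) were higher in DN2, against 11.4% of all DHSs, and 1 was lower, against 5.47% (limma on percentiles, Benjamini-Hochberg adjusted p over all DHSs). A peak in any library makes a DHS, in the locus as elsewhere, so a DHS of one group alone is higher there by construction, and the count is read beside the share of all DHSs. Of the 19, 10 had peaks in DN2 libraries alone, and no test of that difference is given for them. The other 9 are 15% of the 60, against 8.24% of all DHSs. The median difference was 17.6 percentile points over the locus and 2.07 over all DHSs. The middle of the locus values lies among DHSs seen only or mainly in DN2b replicate 2, and the median was 34.8 (4.72 over all DHSs) without DN2b replicate 1 and 20.1 (-0.90 over all DHSs) without DN2b replicate 2, where 38 DHSs remain and the 22 seen in that library alone drop out. The TCR beta locus had 30 of 90 DHSs (33.3%) higher and the TCR alpha and delta locus 48 of 154 (31.2%), and the loci were not tested against each other. Peaks in 4 of 4 DN2 libraries but 0 of the 8 remaining ones were found at 3 of 60 DHSs, against 0.758% of all DHSs. The bulk lists do not tell more open cells from more opening per cell. In an exact permutation test of single DHSs over 495 divisions of 4 against 8 libraries, 0 passed adjustment (smallest adjusted p = 0.0784). An unadjusted p under 0.05 in this test was found at 15 of 60, against 10.7% of all DHSs. DHSs with peaks in DN2 alone are among the 15, and the shares without such DHSs are not given here. Without DN2b replicate 1, where the longest list alone stands for DN2b, limma called more DHSs. The share of all DHSs in that refit is not given here.

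In the lists as deposited, the 3 DHSs present in all DN2 libraries and no others flank Tcrg-C4, the C gene of the Tcrg-V1 cluster. At equal list lengths there were 5, with the DHSs 9434 bp 3′ of Tcrg-C3 and 4058 bp 3′ of Tcrg-C2 added, since their DN1 peaks fell below the cut. The DHS 4736 bp 3′ of Tcrg-C4, the far site shown above, had percentiles of 92.7 and 89.6 in DN2a and 92.7 and 95.2 in DN2b, with no peak in the other 8 libraries. It lies beside the 3′ end of Stard3nl, which runs towards the receptor locus. The DN2 difference was 92.6 points. The DHS 4096 bp 3′ of Tcrg-C4 (chr13:19356757-19356946, between genes) stood at 81.3 and 86.0 in DN2a and 79.0 and 92.0 in DN2b and was absent elsewhere, a difference of 84.6 points. The DHS 1166 bp before Tcrg-C4, between Trgj4 and the gene (chr13:19343297-19343486), stood at 83.8 and 74.1 in DN2a and 73.6 and 82.0 in DN2b, a difference of 78.4 points. DN2a and DN2b values overlapped at all 3. These DHSs were picked for their peaks in DN2 alone, so that the differences carry no test.

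The near site 3546 bp 3′ of Tcrg-C4 reached the highest group mean of the DHSs beside V, J and C segments. It had percentiles of 80.9 and 67.2 in DN1, 98.4 and 97.7 in DN2a and 99.0 and 99.7 in DN2b, and no peak in LSK or IgG. The groups did not overlap and stood in stage order. The rise from LSK to DN1 was 74.1 ± 4.81 (SE) points (limma adjusted p = 4.68e-05) and that from DN1 to DN2a 24.0 ± 5.27 points (adjusted p = 0.0318, limma). With no LSK peak, the first of these differences could not be negative. The sizes changed places at equal list lengths, with DN1 at 44.2 and 30.8 and DN2a at 96.8 and 96.0, a first step of 37.5 points and a second of 58.9 points (limma adjusted p = 0.00057 and 0.000148). The second step missed the threshold without any 1 of the DN2a or IgG libraries (limma adjusted p = 0.0504 to 0.0774). DN2b and DN2a differed by 1.28 ± 5.27 points (limma adjusted p = 1).

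The DHSs 3′ of Tcrg-C2 were likewise absent from LSK and IgG and higher in DN2 than in DN1. At 3758 bp 3′ of the gene, percentiles were 52.2 and 56.9 in DN1, 93.1 and 94.2 in DN2a and 91.9 and 92.7 in DN2b, with no peak in LSK or IgG. All DN2 values lay above both DN1 values. DN1 exceeded LSK by 54.5 ± 4.26 points (limma adjusted p = 0.000107) and DN2a exceeded DN1 by 39.1 ± 4.66 points (limma adjusted p = 0.00139). The first of these could not be negative at this DHS, as it had no LSK peak. Its neighbour at 4058 bp, which holds the Tcrg-C2 copy, stood at 20.5 and 38.3 in DN1, 69.6 and 70.0 in DN2a and 74.4 and 79.0 in DN2b (DN1 to DN2a, 40.5 ± 6.84 points, limma adjusted p = 0.0086). The rise from LSK to DN1 was lost at both when lists were of equal length, at 4.59 points at 3758 bp (limma adjusted p = 0.80) and with no DN1 peak at 4058 bp. The rise from DN1 to DN2a was then 83.1 points at 3758 bp (limma adjusted p = 7.28e-05). At 4058 bp it was 42.2 points, positive by construction, as DN2 libraries alone then had peaks.

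The 3 sequence copies are given side by side, that of Tcrg-C2 having been described above. The DHS 9434 bp 3′ of Tcrg-C3, which is the Tcrg-C3 copy, stood at 27.2 and 14.3 in DN1, 71.6 and 82.7 in DN2a and 69.9 and 87.4 in DN2b. It had no peak in LSK or IgG, so its step from LSK to DN1 could not be negative. Its rise from DN1 to DN2a was 56.4 ± 7.81 points (limma adjusted p = 0.003). Its difference of 20.7 points between LSK and DN1 did not pass (limma adjusted p = 0.138), though it did without DN1 replicate 2 or either DN2b library (limma adjusted p = 0.0278 to 0.034), and at equal list lengths it had no DN1 peak. The DHS 2868 bp 3′ of Tcrg-C1 (chr13:19219757-19220026) had no peak in the first LSK library and 31.6 and 24.1 in the others, 75.8 and 63.2 in DN1, 79.3 and 78.5 in DN2a, 82.9 and 85.4 in DN2b, and a peak at 12.2 in 1 of 3 IgG libraries. DN1 exceeded LSK by 50.9 ± 9.08 points (limma adjusted p = 0.00662), while DN2a and DN1 differed by 9.40 ± 9.95 points (limma adjusted p = 0.838). The first of these did not pass without DN1 replicate 1 (limma adjusted p = 0.0570). In lists of equal length this DHS had no LSK peak, 29.1 and 22.5 in DN1 and 57 and 62.3 in DN2a, and both steps passed (25.8 and 33.8 points, limma adjusted p = 0.0181 and 0.0110). The difference between the copies themselves was not tested. Of the 32-base words in these DHSs, 60.3% by Tcrg-C1, 60.2% by Tcrg-C2 and 38.8% by Tcrg-C3 occur again in the genome, so that short reads from one copy can match another. The DHSs by Tcrg-C4, Tcrg-V7 and Tcrg-V4 described here hold no such word, and that at 3758 bp from Tcrg-C2 10.7%.

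A weaker DHS 19814 bp 3′ of Tcrg-C3 (chr13:19283257-19283426) was seen in single libraries before DN2b. It stood at 37.8 in DN1 replicate 1, 53.1 in DN2a replicate 1 and 64.4 and 80.6 in DN2b, with no peak in any other library. The DN2 difference was 43.2 ± 10.4 points (limma adjusted p = 0.0199), and without DN2b replicate 2 it was 39.2 points (limma adjusted p = 0.0760). At equal list lengths it was 17.6 points, positive by construction, as DN2 libraries alone then had peaks.

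**Figure D3:**
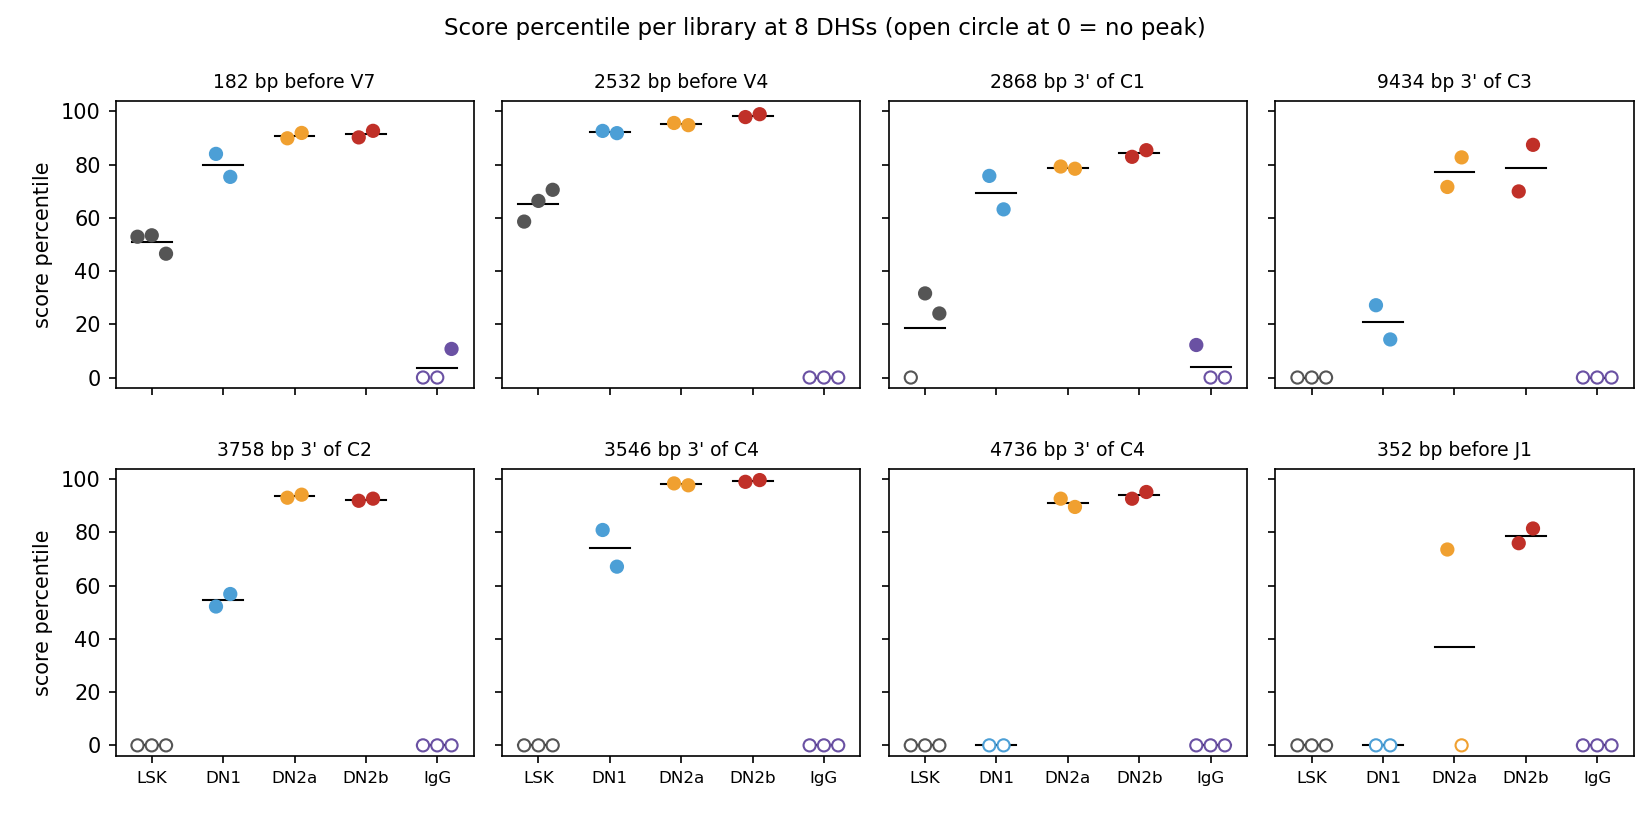
Score percentile (y axis) in every library (points) of each group (x axis) at 8 DHSs, with the group mean as a line and open circles at 0 for libraries without a peak. The V7 and V4 panels are above 45 already in LSK, the C1 panel rises in DN1, the C2 and nearer C4 panels rise in DN1 and again in DN2a, the C3 panel rises in DN2a from low DN1 values, the farther C4 panel is at 0 until DN2a, and the J1 panel has 1 of 2 DN2a libraries and both DN2b libraries above 0.

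One DHS close to each of Trgj1, Trgj2 and Trgj3 had peaks in the same 3 DN2 libraries. The DHS 352 bp before Trgj1 had a percentile of 73.6 in DN2a replicate 1, no peak in DN2a replicate 2, and 76.0 and 81.5 in DN2b. No LSK, DN1 or IgG library had a peak. At Trgj2 and Trgj3 the DHS 218 bp before Trgj2 (chr13:19311337-19311706) stood at 51.3 in DN2a replicate 1 and 69.9 and 75.6 in DN2b, and that 256 bp before Trgj3 (chr13:19256697-19257026) at 25.5, 59.0 and 66.8. DN2 differences, positive by construction, were 57.8, 49.2 and 37.8 points. At equal list lengths they were 34.4 points at Trgj1, 15.3 at Trgj2, which then had no DN2a peak, and 5.89 at Trgj3. A further DHS 1566 bp before Trgj3 stood at 60.9 in DN2a replicate 1 and 59.0 and 85.4 in DN2b, a difference of 51.3 points. The other DHSs before Trgj1 and Trgj3 had a peak in 1 library, or at 1306 bp from Trgj3 in DN2a replicate 1 and DN2b replicate 2.

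From DN2a to DN2b the Trgj3 DHS at 256 bp rose by 50.2 ± 8.71 points (limma adjusted p = 0.0177), whereas the rises at Trgj1 (41.9 ± 18.4 points, adjusted p = 0.351) and Trgj2 (47.1 ± 13.6 points, adjusted p = 0.171) did not pass limma's test, the DN2a replicates being apart. This order depended on list length. With lists of equal length the Trgj3 DHS had a peak in DN2b replicate 1 alone (23.6) and its rise was 11.8 points. The Trgj2 DHS then had peaks in DN2b alone, and its rise was 30.7 points. Both rises were positive by construction, so no test is given for them. That at Trgj1 was 23.7 points (limma adjusted p = 0.532). Without DN2a replicate 1, the one with these peaks, the rises were 78.7 points at Trgj1 and 72.8 at Trgj2. They were then positive by construction, as DN2b alone had peaks. Without DN2a replicate 2 they were 5.13 and 21.5 points, so that the size of both depends on 1 DN2a library. The J DHSs are related in sequence. Those before Trgj2 and Trgj3 shared 296 of 313 aligned bases, and that before Trgj1 shared 140 of 156 with Trgj2 and 155 of 176 with Trgj3. Repeated 32-base words made up 10.7% of the Trgj1 DHS, 32.2% of the Trgj2 DHS and 19.4% of the Trgj3 DHS. None of these 3 DHSs spans the recombination signal printed above. A DHS that does, 82 bp before Trgj1 (chr13:19210177-19210346), and 2 DHSs before Trgj4, 420 and 180 bp away, had a peak in DN2b replicate 2 alone.

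Of the C genes themselves, only Tcrg-C4 had a DHS in its body in 2 replicates of a group. The DHS in an intron of Tcrg-C4 (chr13:19345757-19345926) stood at 66.8 and 88.9 in DN2b and was absent elsewhere, which puts it 77.8 points above DN2a by construction. Its DN2 difference was 38.9 points, and 25.1 at equal list lengths. The coding exon and intron DHSs of Tcrg-C1 and another intron DHS of Tcrg-C4 had a peak in DN2b replicate 2 alone. Tcrg-C3 had no DHS within 1 kb, and Tcrg-C2 had 2, each in DN2b replicate 2 alone.

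On the V side, 2 DHSs within 5 kb of a segment had peaks in all 3 LSK libraries. The DHS 182 bp before Tcrg-V7 had percentiles of 52.9, 53.5 and 46.5 in LSK, 84.1 and 75.4 in DN1, 89.9 and 91.9 in DN2a, 90.2 and 92.7 in DN2b and 10.7 in 1 of 3 IgG libraries. The DHS 2532 bp before Tcrg-V4 stood at 58.6, 66.4 and 70.6 in LSK, 92.7 and 91.8 in DN1, 95.7 and 94.8 in DN2a, 97.9 and 99.0 in DN2b, and was absent from IgG. LSK, DN1 and DN2 did not overlap at either. DN1 exceeded LSK by 28.8 ± 4.77 points at Tcrg-V7 (limma adjusted p = 0.00444) and 27.1 ± 3.68 points at Tcrg-V4 (limma adjusted p = 0.00146). From DN1 to DN2a the differences of 11.2 ± 5.22 and 2.99 ± 4.03 points did not pass (limma adjusted p = 0.381 and 0.975). In lists of equal length the Tcrg-V7 DHS had peaks in 2 of 3 LSK libraries, stood at 53.3 and 48.2 in DN1 and 79.0 and 85.8 in DN2a, and this step passed (31.7 points, limma adjusted p = 0.0436). The Tcrg-V4 DHS stood at 78.6 and 82.8 in DN1 and 91.0 in both DN2a libraries, a step of 10.3 points that did not pass (limma adjusted p = 0.348).

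Close to the Tcrg-V4 segment, DHSs came up in DN2b. The DHS 126 bp 3′ of Tcrg-V4 (chr13:19185557-19185706), the side on which a V segment carries its recombination signal, stood at 79.0 and 87.4 in DN2b and was absent from every other library. The DHS 752 bp before the segment (chr13:19184117-19184326) showed the same libraries, at 63.1 and 70.0. Having peaks in DN2b alone, they stood above DN2a by construction, by 83.2 and 66.6 points. The DHS at 126 bp kept, at equal list lengths, both DN2b libraries (60.8 and 57.5) and a difference of 59.1 points. That at 752 bp kept DN2b replicate 1 alone (31.2), and its difference was 15.6 points. A DHS 62 bp before Tcrg-V4 and one in its coding exon had a peak in DN2b replicate 2 alone.

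Other V segments showed less. The DHS 94 bp before Tcrg-V6 had peaks in 2 of 3 LSK libraries (15.3 and 42.0), in DN1 (63.2 and 61.8), in DN2a replicate 2 (57.9) and in DN2b replicate 2 (86.7). Its DN2 difference of 8.95 points did not pass (limma adjusted p = 0.688). The DHS 6304 bp before Tcrg-V3 (chr13:19236437-19236646) went against the stage order, at 44.6 and 34.7 in 2 of 3 LSK libraries, 75.8 and 68.4 in DN1, no peak in DN2a, and 59.0 and 82.9 in DN2b. It fell by 72.1 points from DN1 to DN2a (limma adjusted p = 0.0152) and rose by 71.0 ± 13.6 points from DN2a to DN2b (limma adjusted p = 0.0292). With lists of equal length it stood at 29.1 and 33.4 in DN1 and 23.6 and 42.1 in DN2b, and the steps were -31.2 and 32.8 points (limma adjusted p = 0.0179 and 0.0203). The fall was not called without DN1 replicate 1 or either DN2a library (limma adjusted p = 0.0551 to 0.0721), and the rise was not called without any 1 of 9 libraries, LSK replicates 1 and 2 and DN2b replicate 1 being the others (limma adjusted p = 0.0507 to 0.106). Tcrg-V5 and Tcrg-V1 had no DHS within 1 kb, and Tcrg-V3 and Trgv2 had 1 each in DN2b replicate 2 alone. A DHS 25682 bp before Tcrg-V7 (chr13:19152237-19152446, between genes) stood at 18.2 in 1 LSK library, 70.7 and 61.8 in DN1, 58.0 and 67.7 in DN2a and 33.3 and 62.2 in DN2b, and DN1 exceeded LSK by 60.2 ± 9.48 points (limma adjusted p = 0.00336). In lists of equal length it had no peak in LSK or DN2b, and the step of 16.8 points did not pass (limma adjusted p = 0.238).

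**Figure D4:**
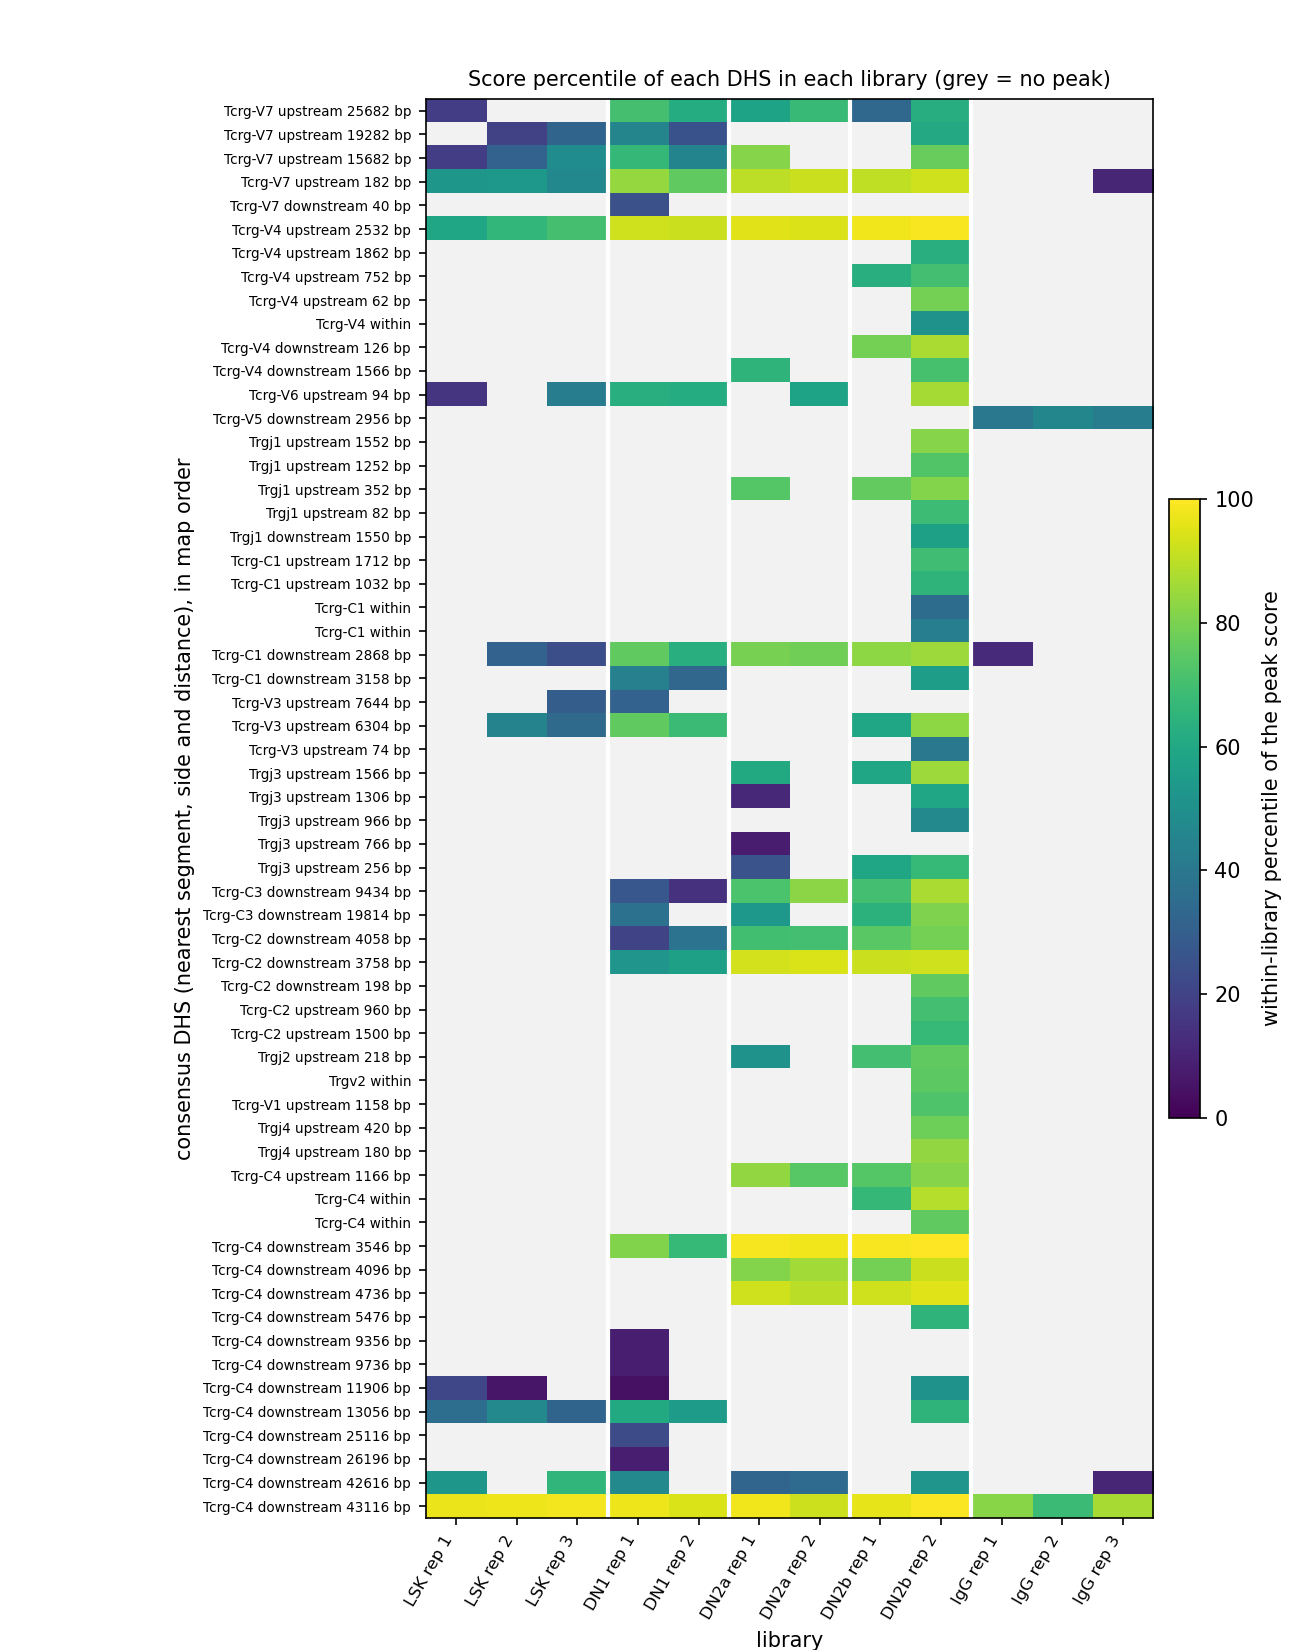
Score percentile (colour) of each of the 60 DHSs (rows, in map order, named by nearest segment, side and distance in bp) in each of the 12 libraries (columns). Grey cells have no peak. The column of DN2b replicate 2 is filled at 52 DHSs, and 22 rows are filled in that column alone.

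Counted by step, DN1 was higher than LSK at 7 of 60 DHSs (11.7%, against 8.1% of all DHSs) and lower at 0 (against 1.29%). These 7 were those before Tcrg-V7 (182 and 25682 bp) and Tcrg-V4 (2532 bp) and those 3′ of Tcrg-C1 (2868 bp), Tcrg-C2 (4058 and 3758 bp) and Tcrg-C4 (3546 bp). Those by Tcrg-C2 and Tcrg-C4 had no LSK peak and so could not be lower in DN1. LSK cells were not cultured, so stage, ligand and culture cannot be told apart in this step. DN2a was higher than DN1 at 7 of 60 (11.7%, against 0.993%) and lower at 1 (against 4.19%), which was the DHS before Tcrg-V3. All 7 that rose lay 3′ of Tcrg-C3, Tcrg-C2 or Tcrg-C4 or between Trgj4 and Tcrg-C4, and these groups also differ in IL-7. Of these 7, 3 had peaks in DN2 alone and rose by construction (1166 bp before Tcrg-C4 and 4096 and 4736 bp 3′ of it). The share of such DHSs among all DHSs higher in DN2a is not given here. DN2b was higher than DN2a at 5 of 60 (8.33%, against 2.2%) and lower at 0 (against 0.179%). Those 5 were the pair around Tcrg-V4, the DHSs before Tcrg-V3 and Trgj3 (256 bp) and the one in Tcrg-C4, and 3 of them (the Tcrg-V4 pair and that in Tcrg-C4) had peaks in DN2b alone, as did 59.6% of all DHSs higher in DN2b. All counts are limma calls. When lists were of equal length, 4 of the 7 DN1 calls were kept (those by Tcrg-V7 at 182 bp, Tcrg-V4, Tcrg-C1 and Tcrg-C4) with 1 added, 7 of 7 DN2a rises with 2 added, and 3 of 5 DN2b rises with 2 added. Among these are DHSs then left with peaks in DN2 alone or DN2b alone, which rose by construction. Without DN1 replicate 2 more DHSs differed between DN1 and LSK and between DN2a and DN1. Without DN2b replicate 1 or DN2a replicate 1 more differed between DN2b and DN2a. The shares of all DHSs in these refits are not given here.

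The 4 DHSs open throughout the 6 Delta1-cultured libraries but absent from LSK and IgG (1.9% of all DHSs) lay 3′ of Tcrg-C3 (9434 bp), Tcrg-C2 (4058 and 3758 bp) and Tcrg-C4 (3546 bp). At equal list lengths 1 of these 4, that by Tcrg-C4, kept the pattern. The others lacked a peak in both DN1 libraries or, at 3758 bp from Tcrg-C2, in DN1 replicate 1. Against the IgG culture, DN2b was higher at 21 of 60 DHSs (35%, against 19.6%) and lower at 1 (against 3.52%, limma). DHSs with peaks in DN2 alone are among the 21 and were higher by construction. A peak in at least 1 IgG library was found at 5 of 60 DHSs, against 29.7% of all DHSs. The IgG lists were the shortest and the IgG libraries had 6 to 7 of 9 myeloid marker promoters open and 0 of 10 T lineage promoters. The part of list length, of IL-7 and of these cells in the difference was not tested. Without DN2b replicate 1 the comparison with IgG called more DHSs, and the share of all DHSs in that refit is not given here.

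One DHS had peaks in the IgG libraries alone, 2956 bp 3′ of Tcrg-V5 (chr13:19195597-19195766, between genes). It stood at 39.9, 45.9 and 42.4 in IgG and had no peak in the other 9 libraries, a pattern shared by 1.89% of all DHSs, and it was 42.7 points lower in DN2b, by construction. It was also the DHS lower in the DN2 comparison, by 14.2 points.

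At the far edge, 1 of 60 DHSs had a peak in all 12 libraries, against 7.68% of all DHSs. It sits at the 5′ end of Stard3nl (chr13:19395777-19395966), a neighbour that is no receptor gene. Its percentiles were 97.0, 97.6 and 98.2 in LSK, 97.6 and 94.4 in DN1, 97.9 and 92.3 in DN2a, 96.2 and 99.6 in DN2b and 82.4, 68.2 and 86.9 in IgG. The DN2 difference of 5.59 ± 3.15 points did not pass (limma adjusted p = 0.288), and DN2b exceeded IgG by 18.7 ± 4.66 points (limma adjusted p = 0.0168, and 0.129 without DN2b replicate 2). In an intron of the same gene, a DHS 13056 bp 3′ of Tcrg-C4 (chr13:19365717-19365906) stood at 36.0, 47.0 and 32.1 in LSK and 60.7 and 55.2 in DN1, then had no peak in DN2a or DN2b replicate 1 and 65.0 in DN2b replicate 2. Its DN2 difference of -15.8 points did not pass (limma adjusted p = 0.315).

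The promoters of 34 genes that recombine the locus, signal from the IL-7 receptor, regulate TCR gamma or complete the receptor complex were read in the same way. In DN2, 8 of 34 (23.5%) were higher, against 4.27% of all protein-coding genes, and 0 were lower, against 1.29% (limma). Tcf7, Bcl11b, Cd3d, Cd3e and Cd3g are also among the T lineage markers given above. Rag1, the recombinase, had no peak in LSK or IgG and stood at 29.4 and 53.4 in DN1, 49.3 and 66.5 in DN2a and 67.9 and 88.9 in DN2b, with DN1 and DN2a overlapping (54.4 ± 7.35 points, limma adjusted p = 0.00562). Il7r, the IL-7 receptor alpha chain, stood at 38.6, 53.5 and 42.0 in LSK, 90.8 and 92.9 in DN1, 88.5 and 75.9 in DN2a, 79.7 and 80.6 in DN2b and 21.2 in 1 of 3 IgG libraries (33.3 ± 5.34 points, limma adjusted p = 0.0113). DN1 was the highest group there.

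The CD3 genes encode the signalling chains that carry the receptor to the surface. Cd3e was absent up to DN1 and stood at 68.5 and 74.1 in DN2a and 92.7 and 98.8 in DN2b (83.5 ± 4.26 points, limma adjusted p = 4.3e-05), and Cd3g showed the same libraries (77.4 ± 3.49 points, limma adjusted p = 2.67e-05). Cd3d (55.9 and 76.8) and Cd247 (40.5 and 75.6) had peaks in DN2b only, with limma adjusted p = 0.00127 and 0.0232. Tcf7, which encodes TCF1, was absent from LSK and IgG and stood at 43.6 and 45.2 in DN1, 59.5 and 59.5 in DN2a and 54.3 and 73.0 in DN2b (limma adjusted p = 0.00187). Bcl11b, a T cell commitment factor, rose from 27.3, 6.12 and 21.3 in LSK over 69.7 and 61.8 in DN1 to between 95.2 and 97.4 in the DN2 libraries (limma adjusted p = 0.000389). Rag2 had peaks in DN1 replicate 1 (31.5), both DN2a libraries (58.0 and 35.1) and DN2b replicate 2 (71.6), and did not pass (35.9 ± 12.8 points, limma adjusted p = 0.180). The DNA repair genes Dclre1c, Prkdc, Lig4, Xrcc4, Xrcc5 and Nhej1, whose products seal the broken ends, had a peak in all 12 libraries, and none passed. Xrcc6, the partner of Xrcc5, had peaks in DN1 replicate 2 (11.9) and DN2a replicate 1 (13.8) only and did not pass.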

How the data were processed

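DNase-seq libraries of 12 samples in 5 groups were taken from the labels. The authors trimmed and aligned paired reads to mm10 with BWA 0.7.12 (SAMtools 1.2 is named too) and called peaks per library by hotspot2 (false discovery rate 0.05), with no pooling of replicates. The deposited lists give a position and a score from 1 to 150 for each 150-bp peak, with no read totals. The list names carry the word uniques, and how reads that match several copies were treated is not given in the sources used here.

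Peaks overlapping by at least 1 bp were merged into DHSs over all libraries on autosomes and the X chromosome, in Python 3.11.15 with pandas 2.3.3. A percentile was the average rank of the score in its library, and absent peaks were 0. limma 3.58.1 (R 4.3.3, eBayes with trend) was fitted to 5 group means over 170207 DHSs or 21755 promoters, called at a Benjamini-Hochberg adjusted p under 0.05, and tested on simulated data. A fold change or count test was not possible from scores. Segments, promoters (within 1 kb of a gene's 5′ end) and annotations came from GENCODE M21 on GRCm38, and sequences from the RefSeq copy of that assembly. Distances run from the segment's edge to the DHS midpoint. Words were searched in the central 150 bp of each DHS, and repeated words are 32-base words that occur more than once in the genome on either strand. Alignments were local (Biopython 1.88). Replicate numbers follow accession order. Whether replicates were separate cultures is not in the labels, and the methods call them independent LSK isolates.

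Named DHSs were those called, up to 16 by highest group mean, those in 2 replicates within 1 kb of a J or C segment, those in all libraries and the top of each group. Other DHSs named in the text (those before Tcrg-V6 and Tcrg-V3, 25682 bp before Tcrg-V7, 752 bp before Tcrg-V4, 1566 bp before Trgj3, 3′ of Tcrg-V5, in Stard3nl, and those seen in 1 library by a segment) and Rag2 and the repair genes were chosen after their values were seen. The region, the promoter and marker lists and the tests were chosen with earlier results of these data known. The values of 2 single marker genes are not reported here. Alternatives were equal list lengths, the upper 50% of each list, presence alone, the deposited score, merging that needed 50 bp of overlap or allowed a gap of 150 bp, all chromosomes, DHSs with peaks in at least 2 libraries, promoter windows of 500 bp and 2.5 kb, limma without trend, and each library left out in turn. Refits of single steps were added after seeing the data.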

Additional observations from a re-analysis of the deposited data

How the results depend on the processing

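No paired analysis was possible because the labels carry no replicate numbers that join libraries across groups. Named DHSs were refitted at equal list lengths, in the upper 50% of each list, under both other mergings and with each library left out, and 270 values kept their direction and their side of limma's threshold, those of DHSs with peaks in DN2 alone having a fixed direction. Presence, the deposited score, all chromosomes, a minimum of 2 libraries and limma without trend were run for counts only. The 2 others were Trgj3 (256 bp) at equal list lengths and the DHS 19814 bp 3′ of Tcrg-C3 without DN2b replicate 2. Their differences were 5.89 and 39.2 points. That at Trgj3 then rests on DN2b replicate 1 alone, is positive by construction and carries no test. None changed direction. Single steps were refitted in the same way, a choice made after seeing the data. Of 29 steps given in the text, 21 kept their side of the threshold at equal list lengths, 5 lost it and 3 gained it, with the values in the text, and the DHS 3′ of Tcrg-V5 had no value in the upper 50% of each list. There 5 steps lost it, those to DN1 25682 bp before Tcrg-V7 and at both DHSs by Tcrg-C2 and both at the DHS before Tcrg-V3, and that at Trgj2 gained it. Neither other merging changed a call.

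Counts moved more. DHSs in all DN2 libraries and no other numbered 3, and 5 at equal list lengths, 5 in the upper 50% of each list and 3 to 7 with 1 library left out. The 60 DHSs became 38 at equal lengths and 38 to 61 with 1 library left out, the 38 being without DN2b replicate 2. Called DHSs between DN2a and DN1 went from 8 to 3 by presence and 4 by the deposited score (6 to 13 with 1 library out), those between DN2b and DN2a from 5 to 3 and 3 (4 to 33), and those between DN1 and LSK from 7 to 3 by the deposited score (6 to 14, with 11 without DN2b replicate 2). The DN2 comparison called 20, and 19 to 46 with 1 library out, against 0 by the exact permutation test, where 15 had an unadjusted p under 0.05. DN2b against IgG called 22 (18 to 51), and the promoter list 8 (6 to 11). A library left out can leave a group with 1 library, which is then assumed to vary like the others. The shares of all DHSs called in these refits are not given here, so the counts are not read as a result about the locus. Depth is unknown, and absence from a short list may reflect it, and the J and C DHSs seen in the longest list alone have no replicate check.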
